A study of Homo sapiens with 24 samples.

Results

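The genes described here are the translation initiation factors, the kinases of eIF2 and the eIF4E-binding proteins (4E-BPs), taken as every gene symbol of the count tables that begins with EIF and a digit from 1 to 6. This gave 56 of 23106 symbols. RNA-seq of polyadenylated RNA was analyzed from 4 human cancer cell lines, each a single established line: A549 from lung, HCT-116 from colorectum, PC3 from prostate and T47D from breast. From each there were 3 libraries from cells in normoxia (21% oxygen) and 3 from cells in hypoxia (0.5% oxygen for 16 h), so 24 libraries in 8 groups. The comparison asks which mRNAs of the initiation machinery differ between the oxygen states in each line, and whether the groups of factors differ alike. A549 and PC3 cells were grown in F12K, HCT-116 cells in McCoy's 5a and T47D cells in DMEM, all with 10% serum, so medium and line cannot be told apart. No source states that replicates came from separate cultures, so p-values measure only the spread between these libraries, which may be technical.

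Translation of most mRNAs begins when eIF4F (the cap-binding protein eIF4E, the scaffold eIF4G and the helicase eIF4A) binds the cap and a small ribosomal subunit carrying eIF3, eIF1, eIF1A, eIF5 and the ternary complex of eIF2, GTP and initiator tRNA is recruited and scans to a start codon. eIF2B recharges eIF2 with GTP, and phosphorylation of the alpha subunit of eIF2 by any of its kinases blocks that step, which lowers most translation and favors mRNAs such as ATF4. Hypophosphorylated 4E-BPs hold eIF4E away from eIF4G, and hypoxia is known to act on translation through both routes. All of these controls act on proteins, whereas the values below are mRNA levels. In bulk RNA, fewer cells with an mRNA and less of it per cell cannot be told apart.

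Library totals ranged from 22698584 to 62850747 counts. CA9, NDRG1 and ANKRD37, which are known hypoxia-induced genes, rose in all 4 lines. T47D libraries held the breast markers ESR1, PGR and GATA3 (mean normoxic levels of 186, 709.6 and 789.6 CPM). PC3 libraries held HOXB13 (77.5 CPM) and HCT-116 libraries held CDX2 (11.8 CPM). The prostate marker KLK3 and the intestinal marker CDX1 were listed at 0 in all 24 libraries, those of PC3 and HCT-116 included, and the lung markers SFTPB and SFTPC were at or below 0.0401 CPM in A549 normoxia. CPM is the count of a gene scaled to a common library total after TMM normalization.

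Of the 56 genes, 51 had enough reads to be tested in all 4 lines. EIF3C (0 to 20 reads a library) and EIF3CL (0 to 1) were tested in none. They are near-identical copies, and the authors discarded fragments without a unique position. The pseudogene EIF3IP1 (0 to 4 reads) was also tested in none, EIF4E1B was tested in T47D cells only, and EIF1AY, a near-identical partner of EIF1AX, in A549 and HCT-116 cells only. EIF1AY is counted among the calls below but not described.

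More initiation factor mRNAs fell than rose in A549 cells (17 against 5) and PC3 cells (14 against 3), while HCT-116 cells were close to even (15 against 13). Once the trends with GC content and length were removed the balance was 8 against 7 in A549 and 7 against 2 in PC3 cells, and it turned to 6 against 15 in HCT-116 cells. EIF5 and EIF5A2 fell in all 4 lines. EIF2B3, EIF2S1, EIF1AX, EIF3M, EIF4A1 and EIF4E fell in A549, HCT-116 and PC3 cells. In the main edgeR fits (each line alone, TMM scaling, no correction and no replicate block) no member rose in more than 2 lines, and only EIF5B passed in opposite directions. With the block in T47D cells, where the replicate numbers were taken to pair the samples, EIF4B also rose there (adjusted p = 0.0356) and so in 3 lines, and EIF2B3 and EIF4E fell in all 4. A gene is said to have risen or fallen where edgeR's quasi-likelihood test gave an adjusted p under 0.05 (Benjamini-Hochberg over all genes tested) and a fold change over 1.2.

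In A549 cells 17 of 52 tested members fell and 5 rose, where 17.8% of all tested genes fell and 17.6% rose. In HCT-116 cells 15 of 52 fell and 13 rose, against backgrounds of 27% and 23.3%. In PC3 cells 14 of 51 fell and 3 rose, against 15.7% and 16.6%. In T47D cells 2 of 52 fell and 0 rose, against 6.69% and 6.55%, and with the replicate block 4 fell and 4 rose, against 10.5% and 9.09%. The shares that fell, 32.7% in A549 cells and 27.5% in PC3 cells, were above the background, while the shares in HCT-116 cells (28.8% fell, 25% rose) were near it. The uncorrected counts by group of factors given below have these same backgrounds. The median log2 fold change of the tested members was -0.12, -0.10, -0.14 and -0.01 in A549, HCT-116, PC3 and T47D cells, beside -0.01, -0.03, -0.01 and -0.01 for all genes.

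Over the lines, 8 of 51 members fell in 3 or 4 lines, where 10.5% of all genes tested in all lines did. Of the 51, 0 rose in 3 or 4 lines in the main edgeR fits, where 9.13% of all genes did. With the replicate block in every line edgeR called 2 (EIF3B and EIF4B). With the correction for GC content and length it called 2 (EIF2AK3 and EIF4B). At an unadjusted p under 0.05 there were 5 such members (EIF2AK3, EIF3B, EIF3F, EIF4B and EIF4G1), and DESeq2 called 3 (EIF3B, EIF4B and EIF4G1). In all, 26 members fell in at least 1 line, 15 rose in at least 1, and 13 tested members passed in none. For these counts, and for those over lines at an unadjusted p, by DESeq2, with the block or with the correction, the shares of all genes were not computed.

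**Figure D1:**
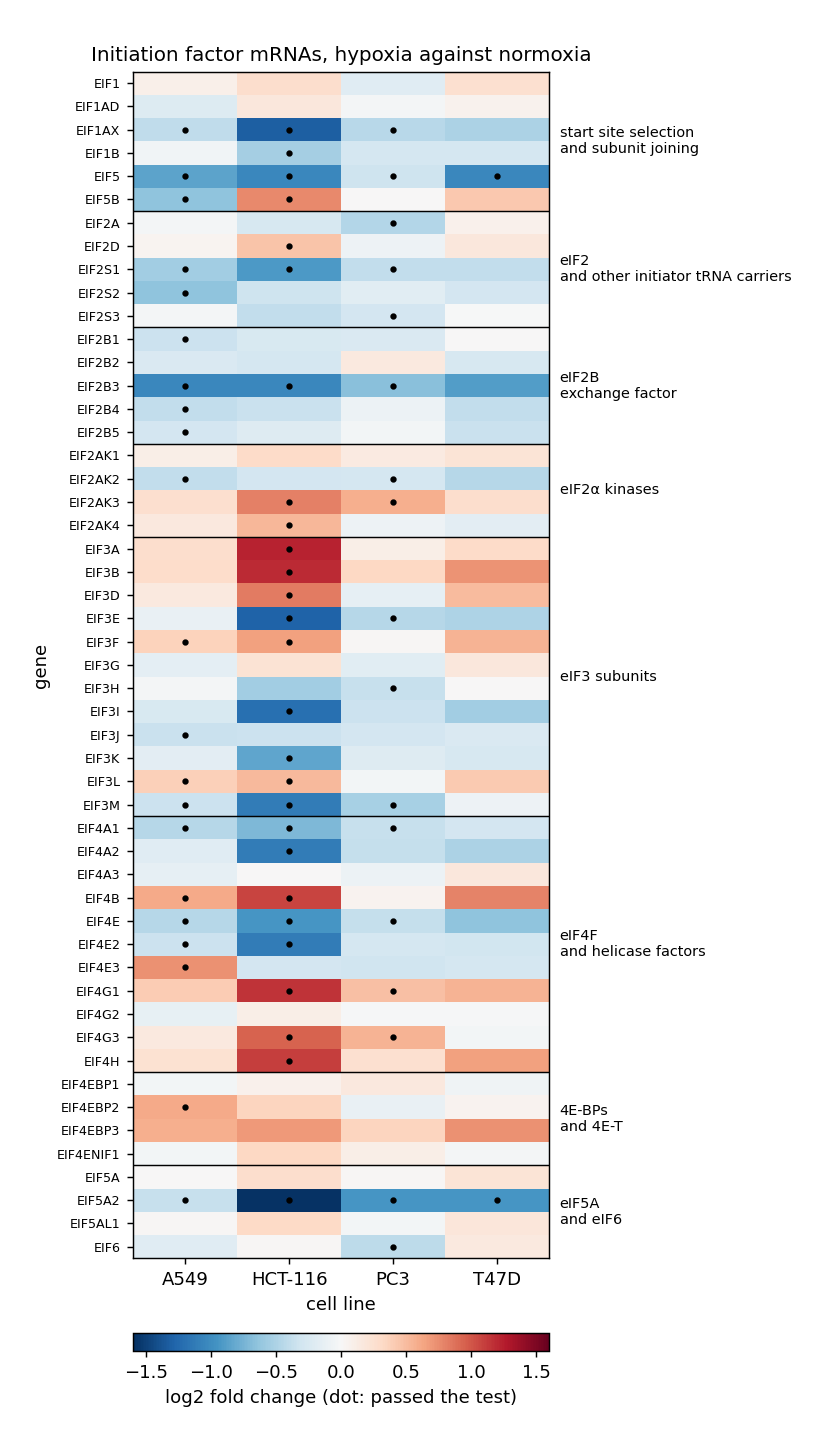
Heat map of the log2 fold change (hypoxia against normoxia, color scale from blue, lower, to red, higher) of the 51 members tested in all 4 lines, with genes in rows by role and cell lines in columns. A dot marks a change that passed the test without a replicate block. EIF5 and EIF5A2 carry a dot in every column, and the HCT-116 column holds the most dots, 5 up and 4 down among the 12 eIF3 subunits.

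Precision differed between the lines. The median SE of the members' log2 fold change was 0.11 in A549, 0.10 in PC3, 0.21 in HCT-116 and 0.23 in T47D cells. In T47D cells 14 members had an unadjusted p under 0.05 (8 higher and 6 lower in hypoxia), DESeq2 called 5 up and 4 down there, and a fit blocked by replicate number called 4 up (EIF3B, EIF4B, EIF4EBP3 and EIF4H) and 4 down (EIF5, EIF5A2, EIF2B3 and EIF4E). Of all genes, 7.4% rose and 8.02% fell by DESeq2, and 9.09% rose and 10.5% fell with the block. The share of all genes at an unadjusted p was not computed.

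Single libraries decided many of the weaker calls. The A549 count of 17 that fell was 10 without hypoxic replicate 1, 6 without hypoxic replicate 2, 9 without normoxic replicate 1 and 9 without normoxic replicate 2, and the 5 that rose were 3 without normoxic replicate 2 and 10 without normoxic replicate 3. Of all genes, 13.8%, 10.9%, 12% and 10.4% fell in these 4 fits of 5 libraries, so the members' share lay above the background by less than with all 6. The PC3 count of 14 was 5, 4 and 7 without hypoxic replicates 1, 2 and 3 and 8 without normoxic replicate 1, and the 3 that rose were 5 without normoxic replicate 2. There 6.4%, 6.46%, 9.67% and 9.44% of all genes fell, and the members' share again lay above the background by less. The T47D count of 2 was 1 without hypoxic replicate 2, 5 without hypoxic replicate 3, 0 without normoxic replicate 1 and 1 without normoxic replicate 2, and the 0 that rose were 1 without hypoxic replicate 3 and 4 without normoxic replicate 3. Of all genes, 3.44%, 12.2%, 0.133% and 0.597% fell and 10.8% and 8.16% rose in these fits, in the same order. No library moved the HCT-116 counts by over 1.5 times.

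Base composition moved with the calls. Members that fell had a median transcript GC content of 39.5%, 40.5% and 38.6% in A549, HCT-116 and PC3 cells, and members that rose 44.7%, 47.5% and 46.3%. Over all genes the medians were 42.8%, 42.7% and 41.8% for genes that fell and 53.7%, 54.6% and 55.2% for genes that rose. A fit that removes each library's trend with GC content and transcript length, and with it any true change that follows them, left 8, 6, 7 and 1 members that fell and 7, 15, 2 and 3 that rose in A549, HCT-116, PC3 and T47D cells. Of all genes, 16.5%, 20.2%, 12.5% and 6.09% fell and 15%, 19.1%, 11.7% and 6.87% rose in that fit. The members' shares that fell in A549 and PC3 cells were then near the background, and in HCT-116 cells the share that fell was below it and the share that rose above it. The members' median became -0.02, 0.20, -0.05 and 0.09. Only EIF5 and EIF2B3 fell in 3 or 4 lines in that fit, which is called GC-corrected below.

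EIF5, which makes eIF2 hydrolyze GTP once the start codon is found, was lower in all hypoxic libraries than in the normoxic libraries of the same line. The gene lies at chr14:103799881-103811362 on the plus strand (GRCh37). In A549 cells its level was 477, 544 and 448 CPM in the 3 normoxic libraries and 261, 279 and 269 CPM in the 3 hypoxic libraries. In HCT-116 cells it was 532, 507 and 514 CPM in normoxia and 283, 202 and 265 CPM in hypoxia. In PC3 cells the levels lay closer together, 677, 619 and 728 CPM in normoxia and 537, 543 and 530.2 CPM in hypoxia. In T47D cells they were 380.2, 318 and 332 CPM in normoxia and 172, 164 and 167 CPM in hypoxia. EIF5 fell by 0.86 in A549, 1.05 in HCT-116, 0.33 in PC3 and 1.04 in T47D cells on the log2 scale (SE 0.11, 0.21, 0.09 and 0.20, edgeR, adjusted p = 0.000231, 0.00125, 0.0243 and 0.00759, n = 3 against 3). The groups did not overlap in any line, and the GC-corrected log2 fold changes were -0.81, -0.86, -0.26 and -0.91 (adjusted p = 0.000199, 0.00274, 0.0363 and 0.00875). The PC3 call was lost without any 1 of hypoxic replicates 1, 2 and 3 or normoxic replicate 1 (adjusted p = 0.0754 to 0.0894), and the T47D call without normoxic replicate 1 (adjusted p = 0.0718).

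The promoters of EIF5, EIF5A2, EIF2B3 and EIF4E are shown because these genes were lower in hypoxia in 3 or 4 lines and differ in the motifs they hold. Each sequence is the 250 bases before the RefSeq start (GRCh38.p14), on the strand of the gene, and capitals mark CACGTG and the letters ACGTG or GCGTG on either strand, the core bound by hypoxia-inducible factors. CACGTG, the E-box of MYC and related factors, holds ACGTG on both strands. The windows are chr14:103333987-103334236 (plus strand) for EIF5, chr3:170908638-170908887 (minus) for EIF5A2, chr1:44986596-44986845 (minus) for EIF2B3 and chr4:98929134-98929383 (minus) for EIF4E.
EIF5: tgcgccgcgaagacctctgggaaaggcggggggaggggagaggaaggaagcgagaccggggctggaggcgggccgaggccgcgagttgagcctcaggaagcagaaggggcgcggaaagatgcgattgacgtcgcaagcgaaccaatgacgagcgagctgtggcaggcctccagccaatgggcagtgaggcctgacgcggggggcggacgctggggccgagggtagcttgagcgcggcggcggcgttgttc
EIF5A2: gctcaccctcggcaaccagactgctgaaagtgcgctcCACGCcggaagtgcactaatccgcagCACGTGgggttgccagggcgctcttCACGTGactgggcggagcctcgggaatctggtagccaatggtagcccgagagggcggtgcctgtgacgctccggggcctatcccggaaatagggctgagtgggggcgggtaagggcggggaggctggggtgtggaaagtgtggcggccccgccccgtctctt
EIF2B3: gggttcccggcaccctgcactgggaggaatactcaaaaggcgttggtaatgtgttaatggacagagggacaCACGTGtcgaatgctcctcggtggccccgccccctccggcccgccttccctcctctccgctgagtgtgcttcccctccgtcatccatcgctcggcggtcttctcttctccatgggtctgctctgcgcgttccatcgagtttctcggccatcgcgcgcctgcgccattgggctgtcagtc
EIF4E: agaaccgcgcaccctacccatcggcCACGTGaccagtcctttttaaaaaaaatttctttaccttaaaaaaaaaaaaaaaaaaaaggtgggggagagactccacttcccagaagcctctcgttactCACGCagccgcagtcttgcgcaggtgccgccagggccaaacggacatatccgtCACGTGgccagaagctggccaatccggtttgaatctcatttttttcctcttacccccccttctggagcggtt
The EIF5 window held 0 matches to these letters, EIF2B3 held 1 CACGTG, and EIF5A2 and EIF4E each held 2 CACGTG and 1 CACGC. Among the 46 members with a RefSeq promoter, 30 (65.2%) held ACGTG or GCGTG on either strand, compared with 43.2% of all 35116 promoters and 59.1% of the 8653 promoters of genes tested in all 4 lines. CACGTG was in 12 of 46 (26.1%), compared with 6.34% of all promoters and 9.18% of those of tested genes. EIF1AX, EIF2S1, EIF3M and EIF4A1, which also fell in 3 lines, held 0 CACGTG, and EIF2S1 and EIF4A1 held 0 matches of any kind. The 12 included EIF3F, EIF4B, EIF4G1 and EIF4H, which rose in 1 or 2 lines. They also included EIF1B, EIF2AK2 and EIF3K, which fell in 1 or 2 lines, and EIF4A3 and EIF4EBP3, which passed in none. A match describes the letters only, and whether the motifs go with the changes was not tested.

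Of the factors that select the start codon and join the subunits, 4 of 7 tested fell in A549 cells (median log2 fold change -0.41), 4 fell and 1 rose in HCT-116 cells (-0.54), 2 of 6 fell in PC3 cells (-0.24) and 1 of 6 fell in T47D cells (-0.11). With the GC correction, among the 6 without EIF1AY, EIF5 alone fell in each line, 0 rose in A549 and PC3 cells, and EIF1, EIF1B and EIF5B rose in HCT-116 and EIF5B in T47D cells. The medians were then -0.16, 0.31, -0.06 and 0.11, so that the HCT-116 and T47D direction turned. EIF1B, a close relative of EIF1, passed both ways in HCT-116 cells, with a log2 fold change of -0.54 uncorrected and 0.54 corrected (adjusted p = 0.0443 for the latter). EIF1AX encodes eIF1A, which helps to hold the scanning subunit open. Its level in HCT-116 cells was 496, 614 and 378 CPM in normoxia and 243, 163 and 188 CPM in hypoxia. It fell by 1.32 in HCT-116, 0.41 in A549 and 0.44 in PC3 cells on the log2 scale (adjusted p = 0.000706, 0.0125 and 0.0195), and in T47D cells the log2 fold change was -0.51 (adjusted p = 0.113). All 3 calls ended with the GC correction, where the log2 fold change was -0.36, -0.08 and -0.07 (adjusted p = 0.169, 0.548 and 0.491). The A549 call was also lost without hypoxic replicate 1, hypoxic replicate 2 or normoxic replicate 2 (adjusted p = 0.0518 to 0.0875), and the PC3 call without hypoxic replicate 1 or 2 (0.0723 and 0.0734).

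EIF5B, the GTPase that joins the large subunit, was the only member that passed in opposite directions, where 1.26% of all genes tested in all lines did. In HCT-116 cells it was at 219, 115 and 153 CPM in normoxia and 303, 239.6 and 285 CPM in hypoxia. Every hypoxic library was higher, and it rose by 0.77 ± 0.24 (SE) on the log2 scale (adjusted p = 0.0181). In A549 cells it was at 257, 198 and 281 CPM in normoxia and 207, 165 and 101 CPM in hypoxia, so that the groups overlapped. It fell there by 0.64 ± 0.22 (adjusted p = 0.0367). The A549 call ended with the GC correction (log2 fold change -0.53, adjusted p = 0.0699) and without hypoxic replicate 2, hypoxic replicate 3, normoxic replicate 1 or normoxic replicate 3 (adjusted p = 0.0649 to 0.116). EIF5B in T47D cells was at 89.8, 92.7 and 112 CPM in normoxia and 136, 134 and 127 CPM in hypoxia (log2 fold change 0.43, adjusted p = 0.15), which passed as higher with the GC correction (0.63, adjusted p = 0.0381), and in PC3 cells the log2 fold change was 0.01.

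**Figure D2:**
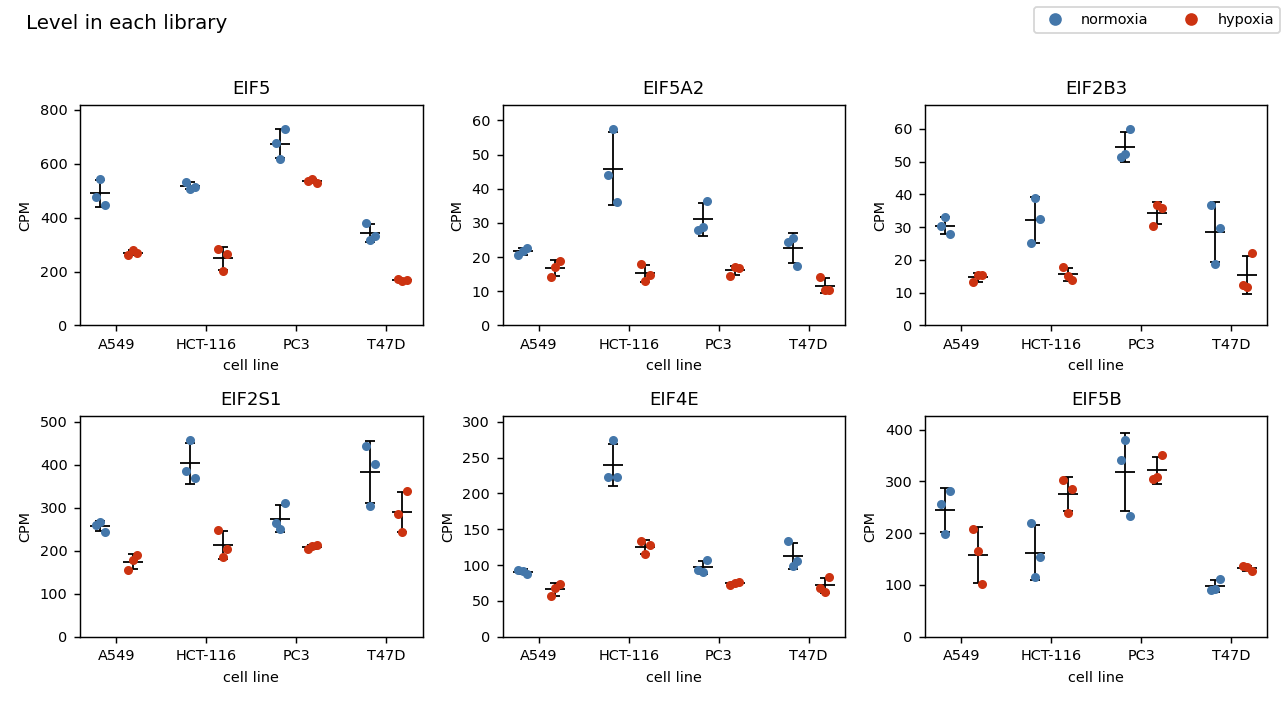
Level (CPM, linear axis from 0) of EIF5, EIF5A2, EIF2B3, EIF2S1, EIF4E and EIF5B in each library of the 4 lines, blue for normoxia and red for hypoxia, with the mean and SD of the 3 libraries. EIF5 and EIF5A2 show no overlap between the states in any line, whereas EIF5B is higher in hypoxia in HCT-116 cells (239.6 to 303 against 115 to 219 CPM) and overlaps in A549 cells.

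The carriers of initiator tRNA are eIF2 (EIF2S1, EIF2S2 and EIF2S3) with EIF2A and EIF2D. Of these 5, 2 fell in A549 cells, 1 fell and 1 rose in HCT-116 cells, 3 fell in PC3 cells and 0 passed in T47D cells, where none had an unadjusted p under 0.05. EIF2S1 is the alpha subunit that the stress kinases phosphorylate. Its level was 259, 267 and 244 CPM in A549 normoxia and 156, 178 and 189 CPM in A549 hypoxia. In HCT-116 cells it was 384, 456 and 368 CPM in normoxia and 249, 186 and 203 CPM in hypoxia, and in PC3 cells 264, 249.6 and 309.9 CPM against 204, 209.9 and 213 CPM. EIF2S1 fell by 0.56, 0.92 and 0.39 on the log2 scale in these lines (adjusted p = 0.00265, 0.00277 and 0.0177). Its groups overlapped in T47D cells (log2 fold change -0.40, adjusted p = 0.258). With the GC correction it still passed in A549 cells (-0.32, adjusted p = 0.0282) but not in HCT-116 (-0.29, 0.211) or PC3 cells (-0.12, 0.226), and the PC3 call was lost without hypoxic replicate 1, 2 or 3 (adjusted p = 0.0668, 0.0682 and 0.0503). In PC3 cells EIF2A (log2 fold change -0.47) and EIF2S3 (-0.30) also fell, and no carrier passed there with the GC correction.

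The exchange factor eIF2B was the group with the most even direction. All 5 of its subunit genes had a negative log2 fold change in A549 and HCT-116 cells, and 4 of 5 in PC3 and T47D cells. In A549 cells 4 of 5 fell (EIF2B1, EIF2B3, EIF2B4 and EIF2B5) and all 5 had an unadjusted p under 0.05. The EIF2B1 call was lost with the GC correction (-0.23, adjusted p = 0.0792), which left 3 of 5. EIF2B3 alone fell in HCT-116 and PC3 cells, and 0 of 5 passed in T47D cells, where EIF2B3 alone had an unadjusted p under 0.05. The EIF2B5 call in A549 cells (log2 fold change -0.29, adjusted p = 0.0398) was lost without any 1 library but hypoxic replicate 3 (adjusted p = 0.0715 to 0.174). The group's median was -0.35, -0.28, -0.10 and -0.36 in A549, HCT-116, PC3 and T47D cells, and -0.35, -0.32, -0.11 and -0.41 with the GC correction.

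EIF2B3 encodes the gamma subunit of eIF2B and lies at chr1:45316194-45452394 on the minus strand (GRCh37). It was at 30.4, 33 and 27.8 CPM in A549 normoxia and 13.2, 15.4 and 15.5 CPM in A549 hypoxia. In HCT-116 cells it was at 25.1, 39 and 32.5 CPM against 17.8, 15.1 and 13.8 CPM, and in PC3 cells at 51.3, 52.2 and 59.9 CPM against 30.4, 36.7 and 35.9 CPM. The states did not overlap in these lines, and EIF2B3 fell 2.07-fold, 2.06-fold and 1.59-fold (adjusted p = 0.000105, 0.00136 and 0.00334). The GC-corrected values also passed, at -0.94, -0.75 and -0.55 (adjusted p = 8.29e-05, 0.00594 and 0.00346). In T47D cells EIF2B3 was at 36.9, 18.7 and 29.8 CPM in normoxia and 12.3, 11.7 and 22.2 CPM in hypoxia. These groups overlapped, but within each replicate number the hypoxic library was the lower. The log2 fold change there was -0.89 (adjusted p = 0.0627), and with the replicate block the adjusted p was 0.0239.

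EIF2AK1 to EIF2AK4 encode the eIF2α kinases HRI, PKR, PERK and GCN2. PERK, the kinase of the unfolded protein response, was the one that rose in 2 lines. EIF2AK3 was at 12.3, 10.7 and 16.2 CPM in HCT-116 normoxia and 19, 27.5 and 22.1 CPM in hypoxia, and at 18.5, 19.6 and 16.5 CPM in PC3 normoxia and 29.4, 26.8 and 25.4 CPM in hypoxia. It rose 1.75-fold and 1.5-fold (adjusted p = 0.00902 and 0.00546). In A549 cells it was at 23.7, 20.7 and 24.6 CPM against 28.6, 27.7 and 27 CPM, a log2 fold change of 0.27 (adjusted p = 0.0751), which passed with the GC correction (0.28, adjusted p = 0.0472). In T47D cells the value was 0.28 (adjusted p = 0.393).

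The other kinases differed less. EIF2AK2 (PKR) fell by 0.40 in A549 and 0.28 in PC3 cells on the log2 scale (adjusted p = 0.0236 and 0.0413), and its log2 fold change was -0.29 in HCT-116 and -0.46 in T47D cells (adjusted p = 0.191 and 0.262). The A549 call was lost without hypoxic replicate 2 or 3 or normoxic replicate 1 or 2 (adjusted p = 0.0539 to 0.0805), and the PC3 call without any 1 library but normoxic replicate 3 (0.0844 to 0.136). EIF2AK4 (GCN2) rose by 0.53 in HCT-116 cells (adjusted p = 0.029), a call that was lost with the GC correction and without hypoxic replicate 2 or 3 (adjusted p = 0.0722 and 0.091). EIF2AK1 (HRI) passed in no line, with log2 fold changes of 0.11, 0.31, 0.14 and 0.22.

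Among 11 genes of the integrated stress response that act below these kinases, 2 rose and 5 fell in A549 cells, 5 rose and 0 fell in HCT-116 cells, 1 rose and 4 fell in PC3 cells, and 2 rose and 3 fell in T47D cells. Of all tested genes, 17.6%, 23.3%, 16.6% and 6.55% rose in A549, HCT-116, PC3 and T47D cells. The shares that fell were 17.8%, 27%, 15.7% and 6.69%, in the same order. ATF4, whose translation rises when eIF2 is phosphorylated, was at 308, 292 and 267 CPM in A549 normoxia and 229, 175 and 159 CPM in hypoxia, and its mRNA fell there by 0.62 on the log2 scale. Its log2 fold change was -0.41, -0.28 and -0.53 in HCT-116, PC3 and T47D cells without passing. DDIT3 (CHOP), a target of ATF4, fell in PC3 (-0.66) and T47D cells (-0.93). TRIB3, a pseudokinase that ATF4 and CHOP induce, is named after its values were seen. It was at 117, 101 and 115 CPM in A549 normoxia and 332, 240.1 and 279 CPM in hypoxia, and rose by 1.35 in A549, 0.89 in HCT-116 and 0.42 in PC3 cells on the log2 scale (adjusted p = 2.81e-05, 0.00107 and 0.0221), with 0.05 in T47D cells. PPP1R15A (GADD34), which brings the phosphatase to eIF2α, rose in A549 (0.43), HCT-116 (1.10) and T47D cells (0.79) and fell in PC3 cells (-0.66), where it was at 65.5, 78.1 and 72.2 CPM in normoxia and 37.3, 52.3 and 46.7 CPM in hypoxia. ATF3 rose in HCT-116 (0.85) and T47D cells (0.82) and fell in PC3 cells (-0.47), and CEBPB fell in A549 (-0.56) and rose in HCT-116 cells. The effect on PPP1R15A differed between the lines (interaction adjusted p = 0.000408). The other listed genes are also named after their values were seen. ASNS, CHAC1 and CEBPG each fell in 2 lines and rose in 0, SESN2 rose in 1 line, and PPP1R15B passed in none. ASNS was at 158, 106 and 111 CPM in A549 normoxia and 95, 67.3 and 64.5 CPM in hypoxia.

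The ATF4 call and the HCT-116 calls of PPP1R15A and CEBPB were kept under every alternative, but others rested on single libraries. PPP1R15A lost its A549 call without hypoxic replicate 1 or any 1 normoxic library (adjusted p = 0.0525 to 0.138) and its T47D call without any 1 library but hypoxic replicate 3 (0.0626 to 0.212), and both with the GC correction. ATF3 lost its HCT-116 call without hypoxic replicate 2 (0.0733), its PC3 call without any 1 library but normoxic replicate 1 (0.0881 to 0.127), with the GC correction (0.0652) and with the replicate block (0.0514), and its T47D call without hypoxic replicate 1 or normoxic replicate 1 or 2 (0.067 to 0.128). DDIT3 lost its PC3 call without hypoxic replicate 1 (0.0514) and its T47D call without normoxic replicate 1 or 2 (0.145 and 0.116) or with the GC correction (-0.62, 0.115), and CEBPB its A549 call without hypoxic replicate 2 (0.0627). TRIB3 kept its A549 and HCT-116 calls in all 15 alternatives and lost its PC3 call with the GC correction (0.22, adjusted p = 0.145) and without hypoxic replicate 1 or normoxic replicate 1 (0.0752 and 0.0734). In 1 edgeR fit of all 24 libraries the PC3 calls of TRIB3 (0.0829), PPP1R15A (0.0506), ATF3 (0.357) and DDIT3 (0.4) were lost. So were those of PPP1R15A (0.129) and CEBPB (0.169) in A549 and DDIT3 (0.15) in T47D cells. Total count scaling lost PPP1R15A in A549 (0.125) and T47D cells (0.102) and ATF3 in T47D cells (0.0527).

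The eIF3 complex, the scaffold of the scanning subunit, did not move as a unit. Of its 12 tested subunits 2 rose and 2 fell in A549 cells, 5 rose and 4 fell in HCT-116 cells, 0 rose and 3 fell in PC3 cells, and 0 passed in T47D cells, where 3 higher (EIF3B, EIF3D and EIF3F) and 1 lower (EIF3I) had an unadjusted p under 0.05. The medians were -0.08, -0.06, -0.20 and 0.10, and with the GC correction 0.14, 0.49, -0.02 and 0.23, so that the A549 and HCT-116 direction turned. In HCT-116 cells EIF3A (log2 fold change 1.23), EIF3D (0.83), EIF3F (0.65), EIF3L (0.52) and EIF3B rose, the last of them 2.29-fold on the linear scale, and EIF3E (log2 fold change -1.29), EIF3I (-1.21), EIF3M (-1.12) and EIF3K (-0.85) fell.

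EIF3D, the subunit that can itself bind the cap of some mRNAs, was at 207, 194 and 286 CPM in HCT-116 normoxia and 387, 453 and 385 CPM in hypoxia, with all hypoxic libraries higher (adjusted p = 0.0063). Its log2 fold change was 0.15 in A549, -0.14 in PC3 and 0.51 in T47D cells, and none of these passed. EIF3M was at 335, 504 and 319 CPM in HCT-116 normoxia and 195, 176 and 163 CPM in hypoxia. EIF3M fell by 1.12 in HCT-116, 0.34 in A549 and 0.53 in PC3 cells (adjusted p = 0.00139, 0.0383 and 0.0139), and its log2 fold change in T47D cells was -0.08. With the GC correction EIF3M passed in HCT-116 (-0.57, adjusted p = 0.0257) and PC3 cells (-0.31, adjusted p = 0.041) but not in A549 cells (-0.15, adjusted p = 0.255). The A549 call was lost without hypoxic replicate 1 or 2 or normoxic replicate 1 or 2 (adjusted p = 0.11 to 0.171), and the PC3 call without hypoxic replicate 2 (0.0546).

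EIF3E differed between the fits. It was at 1597, 2519 and 1184 CPM in HCT-116 normoxia and 685, 783 and 692 CPM in hypoxia, and fell there (adjusted p = 0.00192) and in PC3 cells (log2 fold change -0.46, adjusted p = 0.0481). With the GC correction the values were -0.12 in HCT-116 (adjusted p = 0.675) and 0.02 in PC3 cells (0.868), so the PC3 direction turned. In A549 cells its log2 fold change was -0.12 uncorrected (adjusted p = 0.454) and passed as higher with the correction (0.31, adjusted p = 0.0191). The PC3 call was also lost without hypoxic replicate 1, 2 or 3 or normoxic replicate 1 or 3 (adjusted p = 0.0525 to 0.133). With the correction 3 subunits (EIF3E, EIF3F and EIF3L) rose and 0 fell in A549 cells, 5 rose and 2 fell (EIF3I and EIF3M) in HCT-116 cells, and 0 rose and 1 fell (EIF3M) in PC3 cells.

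**Figure D3:**
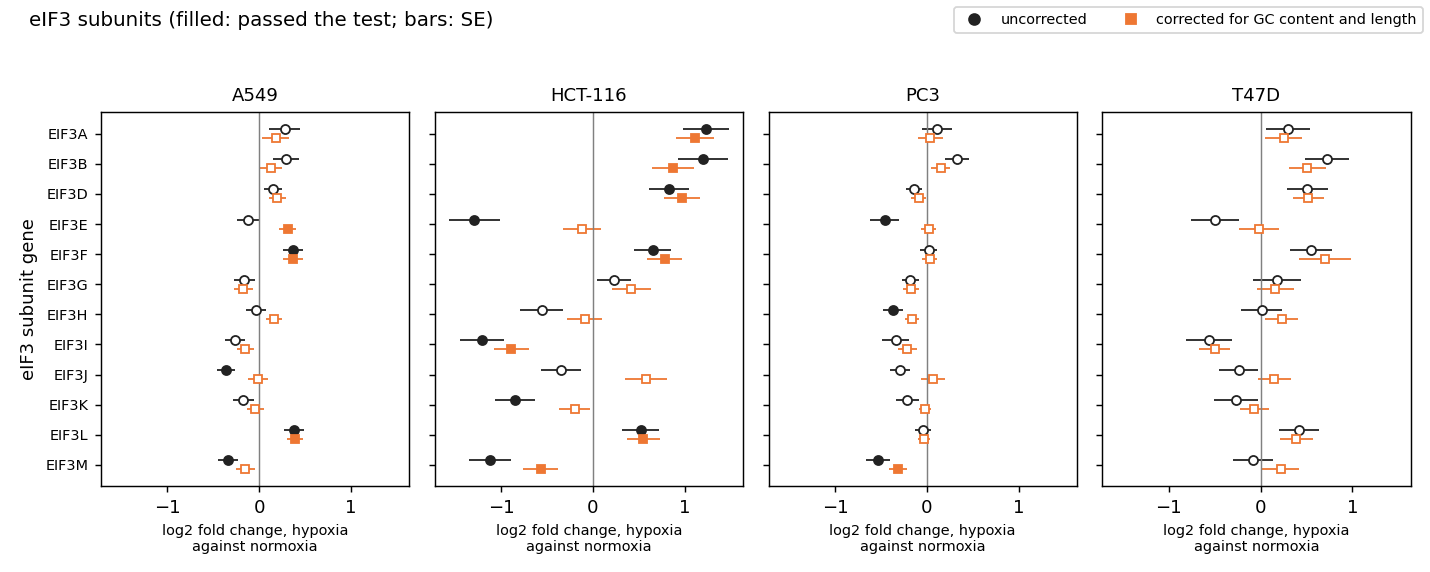
Log2 fold change (hypoxia against normoxia) with SE of the 12 tested eIF3 subunit genes in each line, uncorrected (black circles) and corrected for GC content and transcript length (orange squares), filled where the test was passed. In HCT-116 cells the rises of EIF3A, EIF3B, EIF3D, EIF3F and EIF3L stay filled in both, while EIF3E moves from -1.29 to -0.12.

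Of the eIF4F proteins and the factors that aid its helicase, 2 rose and 3 fell of 11 tested in A549 cells, 4 rose and 4 fell of 11 in HCT-116 cells, 2 rose and 2 fell of 11 in PC3 cells, and 0 of 12 passed in T47D cells, where 3 higher (EIF4B, EIF4G1 and EIF4H) and 1 lower (EIF4E) had an unadjusted p under 0.05. The members that fell were the cap-binding proteins EIF4E and EIF4E2 and the helicases EIF4A1 and EIF4A2, and those that rose were the scaffolds EIF4G1 and EIF4G3, the helicase cofactors EIF4B and EIF4H and, in A549 cells, EIF4E3. In HCT-116 cells EIF4G1 (log2 fold change 1.15), EIF4H (1.11), EIF4B (1.08) and EIF4G3 (0.94) rose and EIF4A2 (-1.12), EIF4E2 (-1.12), EIF4E (-0.94) and EIF4A1 (-0.72) fell. EIF4B also rose in A549 (0.61), and EIF4G1 (0.48) and EIF4G3 (0.56) in PC3 cells. Both EIF4G1 calls were lost with the GC correction (0.54 in HCT-116 and 0.19 in PC3 cells, adjusted p = 0.114 and 0.221), which left 3 up and 1 down in HCT-116 and 1 up and 0 down in PC3 cells.

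EIF4E, the cap-binding protein itself, lies at chr4:99800427-99850284 on the minus strand (GRCh37). It was at 93.6, 92 and 87.2 CPM in A549 normoxia and 56.6, 68 and 73.3 CPM in hypoxia. In HCT-116 cells it was at 223, 274 and 223 CPM against 134, 115 and 128 CPM, in PC3 cells at 92.5, 90.5 and 107 CPM against 72.5, 74.6 and 76.4 CPM, and in T47D cells at 133, 98.9 and 106 CPM against 68.2, 62.8 and 83.8 CPM. The states overlapped in no line. EIF4E fell 1.38-fold, 1.92-fold and 1.3-fold in A549, HCT-116 and PC3 cells (adjusted p = 0.0093, 0.0016 and 0.0158). In T47D cells the log2 fold change was -0.65 (adjusted p = 0.0526, and 0.0357 with the replicate block). EIF4E has one of the lowest GC contents of the family (34.5%), and with the GC correction its log2 fold change was 0.01, 0.39, 0.12 and -0.06, with no call and a turned direction in A549, HCT-116 and PC3 cells. The PC3 call was also lost without hypoxic replicate 1 or 2 (adjusted p = 0.0602 and 0.0634).

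EIF4E2 encodes 4EHP, a cap-binding relative of eIF4E that is known to take part in translation in hypoxia. It was at 105, 169.6 and 114 CPM in HCT-116 normoxia and 67.1, 58.2 and 52.7 CPM in hypoxia, and fell 2.18-fold (adjusted p = 0.00113), also with the GC correction (-0.50, adjusted p = 0.031). It fell by 0.34 on the log2 scale in A549 cells (adjusted p = 0.0366), a call lost with the GC correction (-0.17, adjusted p = 0.184) and without hypoxic replicate 1 or 2 or normoxic replicate 1 or 2 (0.0752 to 0.167). Its log2 fold change was -0.28 in PC3 and -0.31 in T47D cells (adjusted p = 0.0898 and 0.369). RBM4, an RNA-binding partner of 4EHP, passed in no line (-0.31, -0.43, -0.15 and 0.08).

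EIF4E3, a divergent cap-binding protein, moved the other way in A549 cells. It was at 9.35, 10.2 and 8.35 CPM in A549 normoxia and 14.5, 14.4 and 17.2 CPM in hypoxia, and rose 1.66-fold (adjusted p = 0.00218). Its log2 fold change was -0.30, -0.32 and -0.28 in HCT-116, PC3 and T47D cells, none of which passed.

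EIF4A1, the main helicase of eIF4F, was at 1603, 1663 and 1519.9 CPM in A549 normoxia and 1071, 1103 and 1305 CPM in hypoxia. It fell by 0.46, 0.72 and 0.37 on the log2 scale in A549, HCT-116 and PC3 cells (adjusted p = 0.00834, 0.0193 and 0.0215), and the T47D value was -0.30 (adjusted p = 0.47). With the GC correction it fell in A549 cells only (-0.37, adjusted p = 0.0116). The A549 call was lost without hypoxic replicate 2 (adjusted p = 0.061), the HCT-116 call without hypoxic replicate 1, 2 or 3 or normoxic replicate 3 (0.0608 to 0.158), and the PC3 call without hypoxic replicate 1, 2 or 3 or normoxic replicate 1 (0.0672 to 0.078). EIF4A2, its close paralog, was at 512, 1073 and 564 CPM in HCT-116 normoxia and 186, 473 and 333 CPM in hypoxia. EIF4A2 fell there (adjusted p = 0.0163) but not with the GC correction (-0.22, adjusted p = 0.576) or without hypoxic replicate 1 or normoxic replicate 2 (0.0745 and 0.116).

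Of the 3 4E-BPs and 4E-T, EIF4EBP2 rose in A549 cells and 0 passed in the other lines, where EIF4EBP3 was higher at an unadjusted p under 0.05 in HCT-116 and T47D cells. EIF4EBP1, the most studied of them, was at 115, 95.2 and 95.8 CPM in A549 normoxia and 89.8, 99.5 and 107 CPM in hypoxia, and its log2 fold change was -0.04, 0.08, 0.17 and -0.07 in A549, HCT-116, PC3 and T47D cells (SE 0.12, 0.20, 0.09 and 0.23). EIF4EBP2 was at 52.7, 52.9 and 66.5 CPM in A549 normoxia and 80.7, 87.1 and 94.6 CPM in hypoxia, and rose 1.52-fold (adjusted p = 0.00301), also with the GC correction (0.43, adjusted p = 0.0169). Its log2 fold change was 0.35, -0.12 and 0.06 in HCT-116, PC3 and T47D cells, and the PC3 value passed as lower with the GC correction (-0.29, adjusted p = 0.024). EIF4EBP3 had 11 to 400 reads a library and log2 fold changes of 0.58, 0.69, 0.36 and 0.73 without passing (adjusted p = 0.196, 0.0785, 0.484 and 0.0786). With the replicate block it passed in T47D cells (adjusted p = 0.0454), and with the GC correction it passed as higher in HCT-116 (1.25, adjusted p = 0.00865) and T47D cells (0.99, adjusted p = 0.0274). Its reads may in part be those of the readthrough transcript with ANKHD1. EIF4ENIF1 (4E-T), which carries eIF4E to the nucleus and to P-bodies, passed in no line (-0.05, 0.33, 0.11 and -0.03).

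**Figure D4:**
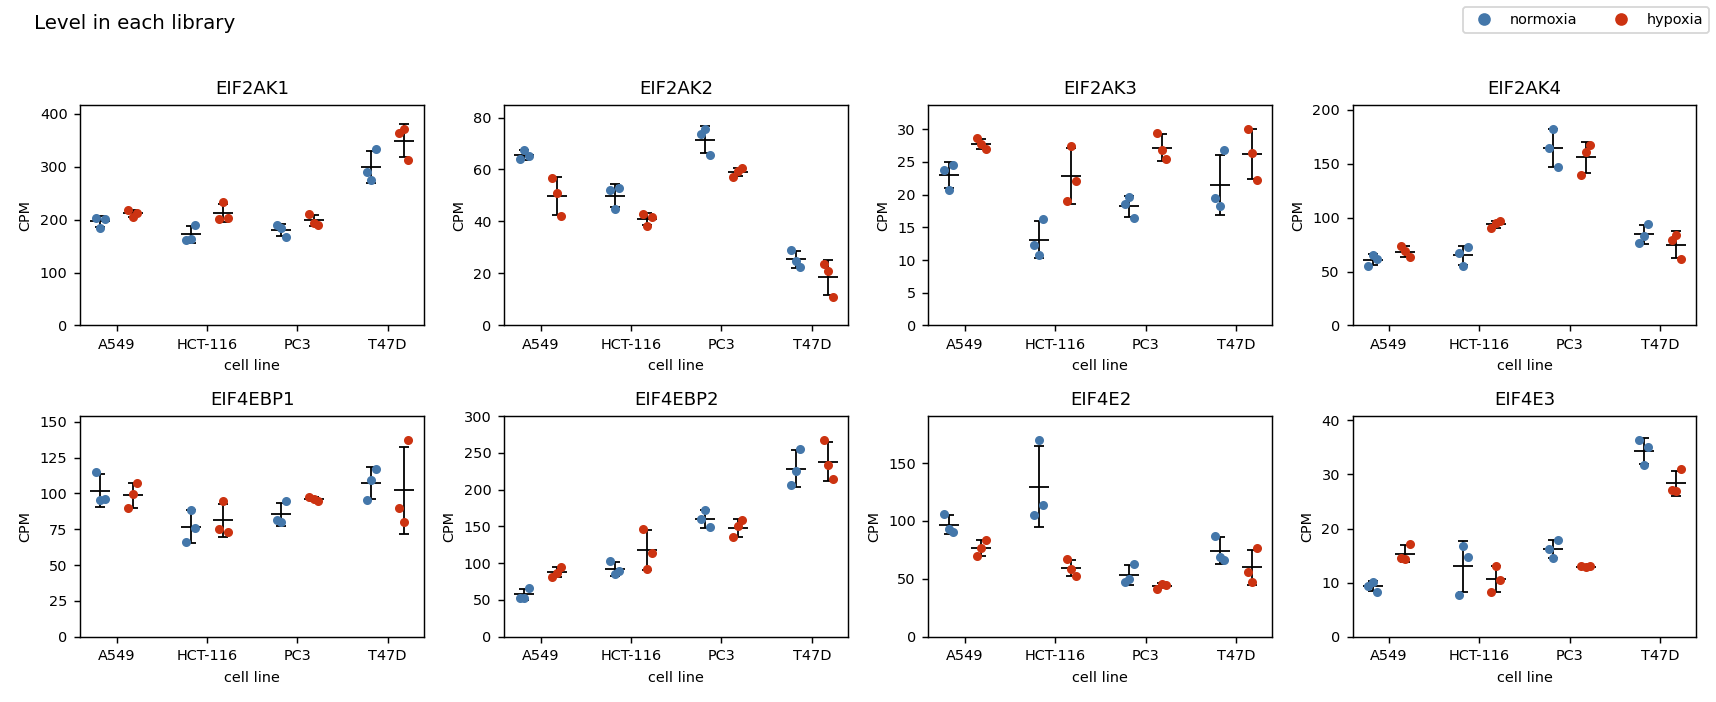
Level (CPM, linear axis from 0) of the 4 eIF2α kinase genes, EIF4EBP1, EIF4EBP2, EIF4E2 and EIF4E3 in each library, blue for normoxia and red for hypoxia, with the mean and SD of the 3 libraries. EIF2AK3 lies higher in hypoxia in HCT-116 and PC3 cells and EIF4EBP2 and EIF4E3 in A549 cells, whereas EIF4EBP1 overlaps between the states in A549, HCT-116 and T47D cells.

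The 4E-BPs are held inactive by mTORC1. Of 11 genes of that branch 3 rose and 0 fell in A549 cells and 4 rose and 1 fell in HCT-116 cells, and of 10 tested 5 rose and 0 fell in PC3 cells and 1 rose and 0 fell in T47D cells. DDIT4 (REDD1), the hypoxia-induced inhibitor of mTORC1, rose in all 4 lines, by 1.70, 4.42, 1.72 and 3.45 on the log2 scale. It was at 31, 22.1 and 42.5 CPM in T47D normoxia and 334, 385 and 326 CPM in hypoxia. The other genes of the branch are named after their values were seen. MTOR and RPTOR, which encode parts of mTORC1, each rose in 2 lines. TSC2 rose in 3 lines and AKT1S1 in 2, and RHEB fell in 1. MLST8, TSC1, DDIT4L, RPS6KB1 and RPS6KB2 passed in none. Whether mTORC1 activity differed was not tested. Of 16 partners of the cap complex, such as poly(A)-binding proteins, 3 rose and 1 fell in A549, 5 rose and 2 fell in HCT-116, 3 rose and 2 fell in PC3 and 2 rose and 1 fell in T47D cells. Beside both lists, 17.6%, 23.3%, 16.6% and 6.55% of all tested genes rose in A549, HCT-116, PC3 and T47D cells. The shares that fell were 17.8%, 27%, 15.7% and 6.69%, in the same order.

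EIF5A2 is the less widely expressed paralog of EIF5A, whose hypusinated protein helps the ribosome through slow peptide bonds. It lies at chr3:170606207-170626433 on the minus strand (GRCh37). It was at 20.6, 21.7 and 22.6 CPM in A549 normoxia and 14.3, 17.2 and 18.8 CPM in hypoxia. In HCT-116 cells it was at 44, 57.4 and 36.2 CPM against 17.9, 13.1 and 14.8 CPM, the largest fall of any member in any line, 3-fold (adjusted p = 0.000167). In PC3 cells it was at 27.8, 28.8 and 36.4 CPM against 14.6, 17 and 16.9 CPM, and in T47D cells at 24.5, 25.6 and 17.5 CPM against 14.2, 10.3 and 10.5 CPM. The states overlapped in no line, and EIF5A2 fell 1.29-fold in A549, 1.92-fold in PC3 and 1.93-fold in T47D cells (adjusted p = 0.0403, 0.00174 and 0.019).

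EIF5A2 has a GC content of 33.9%. With the GC correction it fell in HCT-116 (-0.63, adjusted p = 0.0147) and PC3 cells (-0.61, adjusted p = 0.00306) but not in A549 (-0.09, adjusted p = 0.639) or T47D cells (-0.46, adjusted p = 0.0926). The A549 call was lost without hypoxic replicate 1 or 2 or any 1 normoxic library (adjusted p = 0.0701 to 0.155), and the T47D call without hypoxic replicate 2, normoxic replicate 1 or normoxic replicate 2 (0.0629 to 0.13). EIF5A itself passed in no line (log2 fold changes 0.01, 0.28, 0.02 and 0.22), and its reads may be shared with the near-identical copy EIF5AL1. EIF6, which keeps the ribosomal subunits apart, fell in PC3 cells (-0.42, adjusted p = 0.00809).

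Of the elongation and termination factors, 3 of 14 tested rose and 2 fell in A549 cells, 5 of 13 rose and 2 fell in HCT-116 cells, 2 of 14 rose and 3 fell in PC3 cells, and 3 of 13 rose and 1 fell in T47D cells. Of all tested genes, 17.6%, 23.3%, 16.6% and 6.55% rose in A549, HCT-116, PC3 and T47D cells. The shares that fell were 17.8%, 27%, 15.7% and 6.69%, in the same order. EEF1A2, an elongation factor paralog, rose in all 4 lines (0.94, 1.39, 0.62 and 1.04), and EEF1E1, a scaffold protein of the tRNA synthetase complex, fell in all 4 (-0.88, -2.77, -0.61 and -1.89). The PC3 call of EEF1E1 was lost, and its direction turned, with the GC correction, and it was also lost without hypoxic replicate 1, 2 or 3 (adjusted p = 0.0614, 0.059 and 0.0556). That PC3 call was lost in 1 edgeR fit of all 24 libraries as well (adjusted p = 0.16). The T47D call of EEF1A2 was lost without normoxic replicate 1 or 2 (0.105 and 0.0626). DOHH, which completes the hypusine of eIF5A, passed in HCT-116 cells alone, where it rose (0.99), and that call was lost with the GC correction (0.62, adjusted p = 0.121).

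The effect of hypoxia differed between the 4 lines for 10 of 54 tested members (interaction of line and oxygen in 1 edgeR fit of all libraries), a share near the 18.3% of all genes. EIF5B (adjusted p = 0.0121), EIF3D (0.0147) and EIF5A2 (0.0237) had the smallest values, and EIF4H, EIF3M, EIF1AX, EIF5, EIF3A, EIF4E3 and EIF2D also passed. The count was 6 without A549 hypoxic or normoxic replicate 3, HCT-116 hypoxic replicate 2, any 1 PC3 hypoxic library or PC3 normoxic replicate 1 or 2, and 3 without HCT-116 hypoxic replicate 3 or HCT-116 normoxic replicate 2. The interaction test was not run with the GC correction.

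In normoxia the level differed between the lines for 51 of 53 tested members, where 93.5% of all genes did. EIF4A2 had the widest range among the members described with a mean log2 CPM over 1 in some line, 6.31-fold, from 146 ± 33.1 CPM (SD, n = 3) in A549 to 248 ± 52.1 in PC3, 712 ± 293 in HCT-116 and 913 ± 150.0 in T47D cells. These levels were scaled over all 24 libraries. EIF4EBP3 ranged 3.85-fold, EIF3E 3.59-fold (469 ± 39 CPM in A549 to 1751 ± 628 CPM in HCT-116 cells) and EIF2B5 3.49-fold (43.7 ± 1.4 CPM in A549 to 153 ± 20.6 CPM in T47D cells). The test was not passed for EIF2S2 (adjusted p = 0.533) or EIF2S3 (0.44), the beta and gamma subunits of eIF2.

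Per kilobase of transcript, EIF4A1 and EIF5A stood far above their paralogs in A549 normoxia, at 960.5 ± 41.7 and 1275 ± 118 CPM per kb against 77.4 ± 17.6 for EIF4A2 and 4.14 ± 0.193 for EIF5A2. In T47D cells EIF4A2 (484 ± 79.6) was close to EIF4A1 (406 ± 105). EIF4E2 was above EIF4E in every line and EIF4E3 was the lowest of the 3, for example at 106 ± 8.92, 39.7 ± 1.43 and 0.986 ± 0.095 CPM per kb in A549 cells. EIF4EBP1 was the highest of the 4E-BPs in every line (93 to 130.4 CPM per kb) and EIF4EBP3 the lowest (1.35 to 5). HRI was the highest of the eIF2α kinases in every line (39.1 to 60.8 CPM per kb). These levels divide by the length of 1 transcript of each gene, the canonical one where the annotation marks it, and were not tested against each other. Without that division EIF4E was above EIF4E2 in HCT-116 (239.7 against 129 CPM), PC3 (93.5 against 51.5) and T47D cells (100.4 against 65.9). EIF4EBP2 was then above EIF4EBP1 in the same lines (92.3 against 76.9, 156 against 82.4 and 205 against 96.2 CPM). Both orders thus rest on the lengths used.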

How the data were processed

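The sample labels gave each library's line, oxygen state, time and replicate number. The authors trimmed reads with Trim Galore 0.3.3, aligned them to GRCh37 with HISAT2 2.05, removed fragments without a unique position with Picard 2.0.1 and counted the rest on UCSC genes with HTSeq 0.5.4p3 in intersection-strict mode. The strand setting is not given in the sources used here, so overlapping genes may share reads. The deposited values are whole-number counts per gene symbol, without normalization.

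Computed here, differences were tested with edgeR 4.0.16 (R 4.3.3) by its quasi-likelihood F-test, after filterByExpr and TMM scaling, with the 6 libraries of a line in each fit and Benjamini-Hochberg adjustment over all genes tested. A call needed both an adjusted p below 0.05 and a change of more than 1.2-fold. Differences between lines were tested as the interaction in 1 fit of 24 libraries. Counting error at these depths is small beside the spread between libraries for most members. The libraries carry no molecular identifiers.

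The members and gene lists were chosen with earlier results of these data known. The genes named are the kinases, the 4E-BPs, EIF4E, EIF4E2 and EIF4E3, members called alike in 3 or 4 lines or in opposite directions, the 3 called members with the largest change in each line, the 3 with the smallest interaction p and the 5 with the widest normoxic range among those with a mean log2 CPM over 1 in some line, which leaves out EIF4E1B (0.98). Other members are named where a count was small, after their values were seen.

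The labels number the libraries of both oxygen states from 1 to 3. Libraries with the same number deviated from their group means with correlations of 0.071 to 0.325, above 0.1 in 6 of 12 pairs and in every pair of T47D cells only, so the numbers were taken to pair the samples in that line. This was judged from the same counts, and all 12 correlations were positive. T47D values given without mention of the block come from the fit that ignores the pairing. Alternatives were DESeq2 1.42.0, RLE size factors, total count scaling, no count filter, a filter at a mean of 50 counts, a replicate block, 1 fit of 24 libraries, each library left out, and a spline correction (5 degrees of freedom) for GC content and transcript length, with and without the block. GC content and length came from GENCODE 44 on GRCh37. The fits were tested on simulated counts with known changes.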

Additional observations from a re-analysis of the deposited data

Results flagged for a closer look

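The response to hypoxia differed between the 4 lines by the interaction test (edgeR, 1 fit of 24 libraries) for 7 of the named members: EIF5B (adjusted p = 0.0121), EIF3D (0.0147), EIF5A2 (0.0237), EIF3M (0.0253), EIF1AX (0.0265), EIF5 (0.0292) and EIF4E3 (0.0417). The first 3 of these were among the named members for their small interaction p, so the count of 7 follows in part from the naming. Over all tested members the count was 10 of 54, a share near the 18.3% of all genes. EIF3D and EIF5B passed in 30 of 30 alternatives (highest adjusted p = 0.0463 and 0.0447). The GC and length correction was not run for the interaction test, so these 30 do not cover it. EIF1AX and EIF3M passed in 27, EIF5A2 in 26, EIF5 in 24 and EIF4E3 in 23 of 30, with highest values of 0.12, 0.0911, 0.0852, 0.0786 and 0.114. The highest values of EIF1AX, EIF3M and EIF5A2 came without HCT-116 normoxic replicate 2, that of EIF5 without PC3 normoxic replicate 2 and that of EIF4E3 without A549 hypoxic replicate 3. EIF5 and EIF5A2 fell in every line and differed in size, with the smallest log2 fold change of EIF5 in PC3 cells (-0.33) and of EIF5A2 in A549 cells (-0.37). The log2 fold changes of EIF5B and EIF3D had both signs, but the interaction test does not test the sign. EIF5B had -0.64 in A549 cells, where the groups overlapped and the call ended with the GC correction, and 0.77 in HCT-116 cells. EIF3D had -0.14 in PC3 cells, which did not pass, and 0.83 in HCT-116 cells.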

How the results depend on the processing

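Of 42 named calls, 15 kept their direction and passed under every alternative: EIF5 and EIF2B3 in A549 and HCT-116, EIF5A2 and EIF2AK3 in HCT-116 and PC3, EIF2S1, EIF4E3 and EIF4EBP2 in A549, and EIF3D, EIF3M, EIF4E2 and EIF5B in HCT-116 cells. DESeq2, RLE size factors and the filter at a mean count of 50 lost 0 of 42, total count scaling 1, no filter 2 (EIF2AK2 in PC3 and EIF2B5 in A549 cells), the replicate block 4, the single fit of 24 libraries 17 and the GC and length correction 19, of which 4 turned direction: EIF4E at 0.01 in A549, 0.39 in HCT-116 and 0.12 in PC3 cells, and EIF3E at 0.02 in PC3 cells (0.03 with the block). Leaving out 1 library lost 68 of 252, with ranges of 6 to 16 fallen and 3 to 10 risen members in A549, 4 to 16 and 2 to 5 in PC3, 0 to 5 and 0 to 4 in T47D cells, and 3 to 13 members that differed between lines.

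The single fit of 24 libraries gave 2 up and 6 down in A549, 1 up and 2 down in PC3, and 6 up and 4 down in T47D cells. Of all genes, 8.87%, 5.39% and 13.9% rose and 7.35%, 2.64% and 9.94% fell in that fit. The GC and length correction gave 8 down in A549, 6 in HCT-116, 7 in PC3 and 1 in T47D cells, where 3 rose. With the replicate block as well it gave 8 up and 10 down in A549, 7 down in HCT-116, 6 down in PC3, and 7 up and 4 down in T47D cells. Of all genes, 19.6%, 24.2%, 13.5% and 13.5% fell with both, and 17.5% rose in A549 and 12.6% in T47D cells. In T47D cells DESeq2 gave 5 up and 4 down, the replicate block 4 up and 4 down, total count scaling 5 down and no filter 4 down. Of all genes, 8.02%, 10.5%, 10% and 7.25% fell in these fits, in the same order, and 7.4% rose by DESeq2 and 9.09% with the block. DESeq2 called the interaction for 18 members. Counts over the lines under alternatives were added after the data were seen. Members down in 3 or 4 lines numbered 4 in the single fit and 2 with the GC and length correction, with or without the block. Members up in 3 or 4 lines numbered 3 by DESeq2, 2 with the block, 2 with the GC and length correction and 3 with both. Members called in opposite directions numbered 2 with total count scaling, 0 in the single fit and 2 with the GC and length correction and block. Outside T47D cells the replicate numbers were not taken to pair the samples, although all 9 correlations were positive (0.071 to 0.289) and every PC3 library correlated best with its own number, a hint from the data. There the block called 5 up and 14 down in A549, 13 and 16 in HCT-116 and 4 and 14 in PC3 cells. Of all genes, it called 18% up and 18% down in A549, 26.8% and 29.6% in HCT-116 and 17.4% and 16.6% in PC3 cells. Total count scaling moved the median of all genes to -0.13 in A549 and -0.12 in T47D cells and gave 4 up and 22 down in A549 cells, where 12.8% of all genes rose and 24.9% fell. Why calls were lost was not tested, beyond the smaller number of libraries and the removal of any change that follows GC content or length. T47D and HCT-116 values carry the largest errors, so a member that missed the threshold there is not shown to be unchanged.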

Other observations

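The 13 tested members that passed in no line without a correction for GC content were EIF1, EIF1AD, EIF2AK1, EIF2B2, EIF3G, EIF4A3, EIF4E1B, EIF4EBP1, EIF4EBP3, EIF4ENIF1, EIF4G2, EIF5A and EIF5AL1. EIF4G2 and EIF1 are described here after their values were seen. EIF4G2 encodes DAP5, a relative of eIF4G that lacks the eIF4E-binding part. It was at 2001, 2079 and 1952 CPM in PC3 normoxia and 1968, 1988 and 1987 CPM in hypoxia, and its log2 fold change was -0.13, 0.11, -0.02 and -0.02 in A549, HCT-116, PC3 and T47D cells (SE 0.10, 0.24, 0.08 and 0.22). EIF1, which guards the choice of start codon together with eIF1A, was at 331, 324 and 373 CPM in PC3 normoxia and 290.3, 294 and 308 CPM in hypoxia, and its log2 fold change was 0.09, 0.28, -0.20 and 0.26. EIF1 passed as higher in HCT-116 cells with the GC and length correction (0.51, adjusted p = 0.0421), as did EIF4EBP3 in HCT-116 and T47D cells. A value that missed the threshold does not show that these mRNAs were level.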
